A study of Schizosaccharomyces pombe with 8 samples.

Results

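Intron retention in fission yeast (Schizosaccharomyces pombe) carrying prp10-R379H was compared with wild type (WT). The introns were those of the authors' class of annotated splice sites with at least 20 spliced plus unspliced reads in the prp10-R379H library and in each of the 2 WT libraries. They numbered 2587 of 5144 annotated introns (50.3%), in 1410 genes. The series holds 8 poly(A) RNA-seq libraries, 1 from each of 6 splicing-factor mutants and 2 from WT. The mutant was strain ts102B12, genotype prp10-R379H, and WT was strain ED666. The other mutants, used only as a background, were prp22-V801M;G917R, cwf22-G191D, sap114-A152V, prp1-G705D and ntr1-W597R. All cultures, WT included, were grown in YPD at 25 °C and held at 37 °C for 15 min before collection, and directional libraries were made from 1 µg of total RNA. The heat shift is therefore shared by every group. No library at 25 °C was analysed here. ts102B12 is a single strain with 1 library, so R379H and any other difference between that strain and ED666 cannot be told apart. The mutation changes 1 residue, and junction counts do not check it.

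Prp10 is the fission yeast counterpart of human SF3B1, the large subunit of SF3b. SF3b is the part of the U2 snRNP that clamps the pairing of U2 snRNA with the branch site and holds the branch adenosine that attacks the 5′ splice site. Sap114 belongs to SF3a, the other multi-subunit part of the U2 snRNP, while Prp1, Cwf22, Prp22 and Ntr1 act at later steps. Fission yeast introns are mostly short and lie in coding regions.

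The introns below mark the ends of the range in prp10-R379H among introns with at least 50 reads in each library compared. They are the largest rise against WT, the intron with the lowest share in the mutant, 2 of the introns highest against the other 5 mutants and 2 of the lowest. All lie in coding regions. Coordinates are those of the authors' table (build ASM294v2), and the letters come from the RefSeq assembly ASM294v3, in which each of these introns is annotated with both of the same ends. Capitals mark the first 6 bases, the last match to CTAAC, to CTGAC, to CTAAT or to CTGAT within the last 60 bases on the intron's own strand (taken as the branch site), and the last 3 bases. Where no such match exists, only the ends are in capitals, and the branch site is not inferred.
SPAPB1A10.08 intron 1 (I:1876887-1876958, plus strand): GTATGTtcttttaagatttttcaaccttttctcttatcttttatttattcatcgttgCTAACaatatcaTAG
ned8 intron 1 (II:2320191-2320238, minus strand): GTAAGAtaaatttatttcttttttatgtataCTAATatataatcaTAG
ini1 intron 3 (I:2494857-2494895, minus strand): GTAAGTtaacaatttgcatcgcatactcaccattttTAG
pck1 intron 3 (I:2367726-2367766, minus strand): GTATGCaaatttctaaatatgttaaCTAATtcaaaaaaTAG
rpc19 intron 1 (I:903173-903245, plus strand): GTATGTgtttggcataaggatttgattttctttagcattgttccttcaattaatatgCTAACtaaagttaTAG
nda2 intron 1 (II:4269046-4269135, plus strand): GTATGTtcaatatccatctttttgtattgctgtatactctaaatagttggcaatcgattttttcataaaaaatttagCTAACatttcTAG
The introns of ini1 and pck1 are 39 and 41 nt long, and those of rpc19 and nda2 are 73 and 90 nt. The 6 highest against the other mutants were not all short. SPBC651.07 intron 1 (85 nt), not printed, ranked above pck1 intron 3, at 2.69 against 2.49 log2 units. Intron 2 of loc1 is 395 nt long, and intron 1 of mks1 is 45 nt.

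Most tested introns were retained in prp10-R379H. The unspliced share of an intron is its unspliced reads as a percentage of spliced plus unspliced reads. Its median over introns was 63.2% in prp10-R379H, with quartiles of 42.9 and 80.9%, against 4.76% and 5.83% in WT replicates 1 and 2. Over summed reads the share was 62.0% in the mutant and 11.6% and 12.4% in WT. The share in prp10-R379H lay above both WT libraries in 2570 introns, 99.3% of those tested, and below both in 6. The median rise against the mean of WT was 50.8 percentage points, with quartiles of 33.1 and 66.4. By comparison, the 2 WT libraries differed from each other by a median of 2.54 points, and by less than 11.9 points at 95% of introns. A rise of at least 20 points against the mean of WT, with a share above both WT libraries, was seen at 2332 introns (90.1%). One of at least 50 points, by the same rule, was seen at 1327 (51.3%). More reads were unspliced than spliced at 66.8% of introns in the mutant, against 4.75% and 5.10% in WT.

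edgeR's quasi-likelihood test on the spliced and unspliced counts called 2464 rises (95.2% of introns tested) and 0 falls at a Benjamini-Hochberg adjusted p under 0.05. No fall passed at an unadjusted p under 0.05 either, and DESeq2 and limma called 2342 and 2429 rises and 0 falls. Unspliced counts tested alone, scaled by library totals, gave 2300 rises and 6 falls. With 1 mutant library, the spread in these fits came from the WT pair, and the mutant library was assumed to vary like WT. In edgeR's fit the prior degrees of freedom were infinite, so that spread was pooled across introns. The SE and p given for an intron therefore do not measure the WT spread of that intron. With 1 WT replicate left out, 1 library stands against 1, and the fit used the spread estimated from all 3 libraries, so it shows how the values move and is no independent test. WT replicates are not stated to be separate cultures, so that spread may be technical. A permutation of 3 libraries cannot give a p below 0.333.

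**Figure D1:**
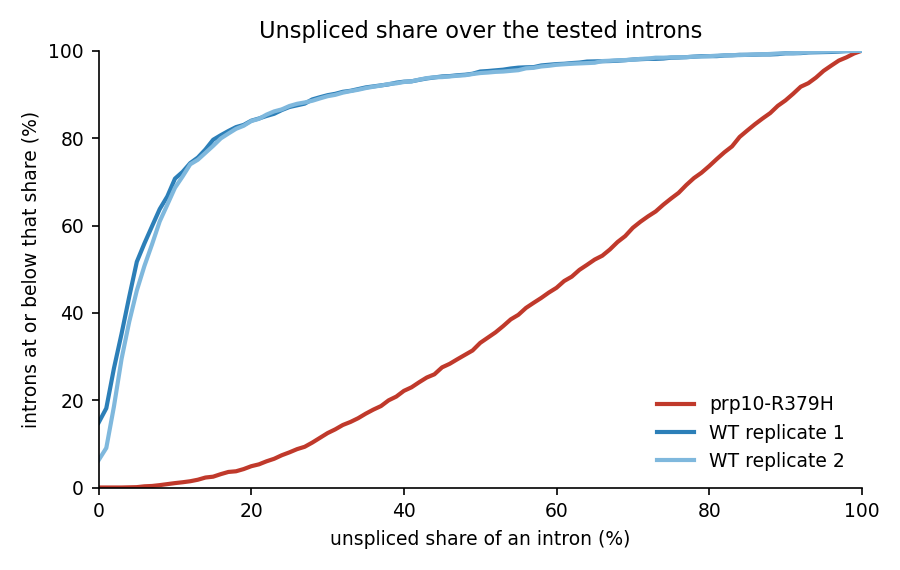
Cumulative share of the 2587 tested introns (vertical axis, %) at or below each unspliced share (horizontal axis, %) in prp10-R379H and the 2 WT libraries. The WT curves lie together and rise steeply near their medians of 4.76% and 5.83%, whereas the prp10-R379H curve climbs almost evenly to 100% around its median of 63.2%.

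The size of retention in the mutant followed the WT share. The 519 introns under 2% in WT had a median of 44.8% in prp10-R379H, the 588 between 5 and 10% had 66.8%, and the 127 above 50% had 93.8%. The 123 introns without a call had a higher WT share than the called ones, with medians of 16.7% and 5.23%, and 37 of them were above 50% unspliced in WT.

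Among introns with at least 50 reads in each of the 3 libraries, the 12 largest rises, 1 per gene, ended between 88.9 and 98.4% unspliced. The largest was in intron 1 of SPAPB1A10.08, an uncharacterized gene. Its share was 95.7% in prp10-R379H (290 of 303 reads, 95% Wilson interval 92.8 to 97.5), 4.6% in WT replicate 1 and 3.75% in WT replicate 2, a log2 odds change of 8.99 ± 0.57 (SE) with an edgeR adjusted p of 3.37e-50. The mutant stood far above both WT libraries, which differed by under 1 point. Such intervals cover counting error only, since reads are not shown to be independent molecules. Introns of 4 of the kinase genes among these 12 are given as examples. Intron 3 of pck1, a protein kinase C of the cell wall integrity pathway, stood at 98.4% against 4.65% and 9.97%. Intron 3 of cki3, a casein kinase 1 family member, stood at 93.0% against 1.96% and 3.90%. Intron 3 of cds1, the replication checkpoint kinase, stood at 95.7% against 3.64% and 8.06%, and intron 3 of sck1, an S6 kinase family member, at 90.4% against 4.92% and 2.04%. In each of the 4 the mutant lay above both WT libraries, as did 99.3% of all tested introns. The 4 were chosen for large rises, so this is no added support. Intron 3 of rpb1, the largest subunit of RNA polymerase II, stood at 91.5% against 3.23% and 3.12%.

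At the other end, a few introns were spliced almost fully in the mutant too. Intron 1 of ned8, which encodes the ubiquitin-like modifier of cullins, had the lowest share among the deeply read introns. It stood at 5.19% (4 of 77 reads, 95% Wilson interval 2.04 to 12.6) against 0 of 66 and 0 of 139 reads in WT, with an edgeR adjusted p of 0.00575. That rise was no longer called without WT replicate 2 (adjusted p 0.0575) or with unspliced counts alone (0.0814). Intron 1 of tum1, a sulfurtransferase gene, behaved alike, with 5.88% (3 of 51 reads) against 0 of 71 and 0 of 129, an adjusted p of 0.00865 and one of 0.0535 without WT replicate 2. Intron 4 of SPBC3E7.07C stood at 5.51% against 2.67% and 1.14% and was not called (adjusted p 0.0813). Intron 2 of rps2502, for ribosomal protein eS25, was read much more deeply. It stood at 7.72% (261 of 3379 reads) against 0.491% and 0.456%, with an adjusted p of 2.97e-18, so a small share there was still a clear rise. In the other mutants the shares of these introns ran from 2.08 to 9.03% for ned8, 4.23 to 24.6% for tum1, 4.14 to 15.3% for SPBC3E7.07C and 2.53 to 18.4% for rps2502.

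Among introns with at least 50 reads in each of the 3 libraries, 3 of the 5 smallest changes were at introns already retained almost fully in WT. Intron 2 of dbp2, a DEAD-box RNA helicase gene, stood at 99.3% against 99.5% and 99.6%. Intron 2 of SPBPB21E7.11 stood at 95.1% against 97.7% and 98.1%, and intron 1 of sap62, a gene of SF3a, at 98.3% against 98.2% and 93.4%. None of the 3 was called in the test of unspliced against spliced counts. With unspliced counts alone, scaled by library totals, 2 of them were called as falls, SPBPB21E7.11 at -1.53 log2 units (edgeR adjusted p 0.000352) and dbp2 at -1.14 (0.00634). Intron 2 of scs2 was at 59.0% in the mutant and 58.3% and 56.0% in WT (log2 odds change 0.12 ± 0.39, adjusted p 0.765), with 59.3 to 69.9% in the other mutants. Intron 2 of SPAC1687.21 stood at 34.1% in the mutant and at 34.1% and 29.6% in WT, and was not called (adjusted p 0.687).

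**Figure D2:**
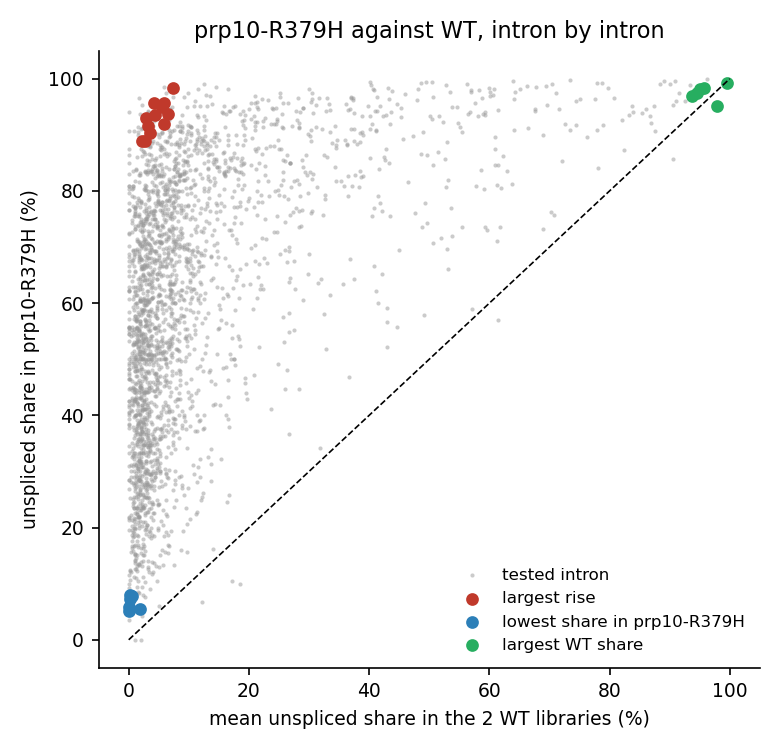
Unspliced share in prp10-R379H (vertical axis, %) against the mean of the 2 WT libraries (horizontal axis, %), 1 grey point per tested intron, with the dashed line at equal shares. Coloured points are the named introns with the 12 largest rises (88.9 to 98.4% in the mutant), the 6 lowest shares in the mutant and the 6 largest WT shares, and 2570 of 2587 introns lie above both WT libraries.

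The other 5 mutants retain introns too, so the prp10-R379H pattern was set beside theirs at the 2514 introns with at least 20 reads in all 8 libraries. Each library's median log2 odds of unspliced to spliced (pseudocount 0.5) was first removed. No intron then differed between prp10-R379H and the other 5 in edgeR's quasi-likelihood test (0 of 2514, 0%, smallest adjusted p 0.0955). At an unadjusted p under 0.05, 53 introns (2.11%) were higher and 25 (0.994%) lower. limma called 0, and DESeq2 called 1 higher, intron 6 of ysh1, and 0 lower. The other 5 are different genotypes, whose differences from each other form the spread of this test. Across introns the log2 odds in prp10-R379H had Spearman correlations of 0.84 to 0.90 with the other mutants and of 0.52 and 0.57 with WT (n = 2514 introns, which share libraries and are not replicates).

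Where prp10-R379H stood apart in size was at the shortest introns. The centred difference used here is the median-centred log2 odds in prp10-R379H minus the mean of the same in the other 5 mutants, and its median is given for each length class. It was 0.64 at the 147 introns of 32 to 40 nt, 0.41 at the 274 of 41 to 45 nt and 0.12 at the 332 of 46 to 50 nt. It turned to -0.10 at 51 to 60 nt and -0.19 at the 418 introns of 61 to 80 nt, and lay at -0.12 at 81 to 100 nt. In introns over 200 nt it was -0.03. In the shortest class 124 of 147 introns (84.4%) were above the mean of the other mutants, and at 61 to 80 nt 150 of 418 (35.9%), against 1267 of all 2514 introns (50.4%). Of the 53 introns higher at an unadjusted edgeR p under 0.05, 15 were of 32 to 40 nt and 24 of 41 to 45 nt. Those classes hold 147 and 274 of the 2514 introns. None of the 25 lower ones fell in those classes. These counts come from the same reads as the medians above and are no separate support. The centred difference was also taken for each other mutant against its own remaining 5. There the shortest class ran from -0.29 in sap114-A152V to 0.04 in cwf22-G191D. Those remaining 5 always include prp10-R379H, so these values depend on it and are no independent background. The length classes were drawn after the values had been seen.

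In plain shares, the median at 32 to 40 nt was 69.7% in prp10-R379H, above prp22 (63.9%) and cwf22 (62.8%), although over all tested introns prp10-R379H was below both (63.2% against 67.3% and 67.6%). At 61 to 80 nt the order was the opposite, with 57.3% in prp10-R379H, 64.6% in prp22 and 66.7% in cwf22. In WT the shortest class stood at 4.4% and 4.37%, close to the 3.95% and 4.86% of the 61 to 80 nt class. Long introns were retained most in every library, with medians above 200 nt of 86.9% in prp10-R379H and of 27.7% and 28.2% in WT. They also carried more reads in prp10-R379H, a median of 317 per intron against 99 and 192 in WT, where the shortest class had 76 against 45 and 90.5. How reads were classed as unspliced is not given in the sources used here, so whether counting depends on intron length was not tested. The comparison between libraries is of the same introns.

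Taken as 1 value per library, the median log2 odds of the 421 introns up to 45 nt minus that of the 594 introns of 61 to 100 nt was 0.22 in prp10-R379H. It was -0.32 in prp22, -0.42 in cwf22, -0.39 in sap114, -0.36 in prp1 and -0.43 in ntr1. In WT it was -0.06 and -0.28. prp10-R379H alone was above 0, and it was 0.61 above the mean of the other 5 mutants, whose SD was 0.05 (n = 5). With 1 library against 5, an exact permutation test cannot give a one-sided p below 0.167, which is the value reached. The difference was 0.58 with a minimum of 10 reads and 0.76 with one of 50, and between 0.60 and 0.63 with each other mutant left out. These settings were chosen after seeing the data.

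**Figure D3:**
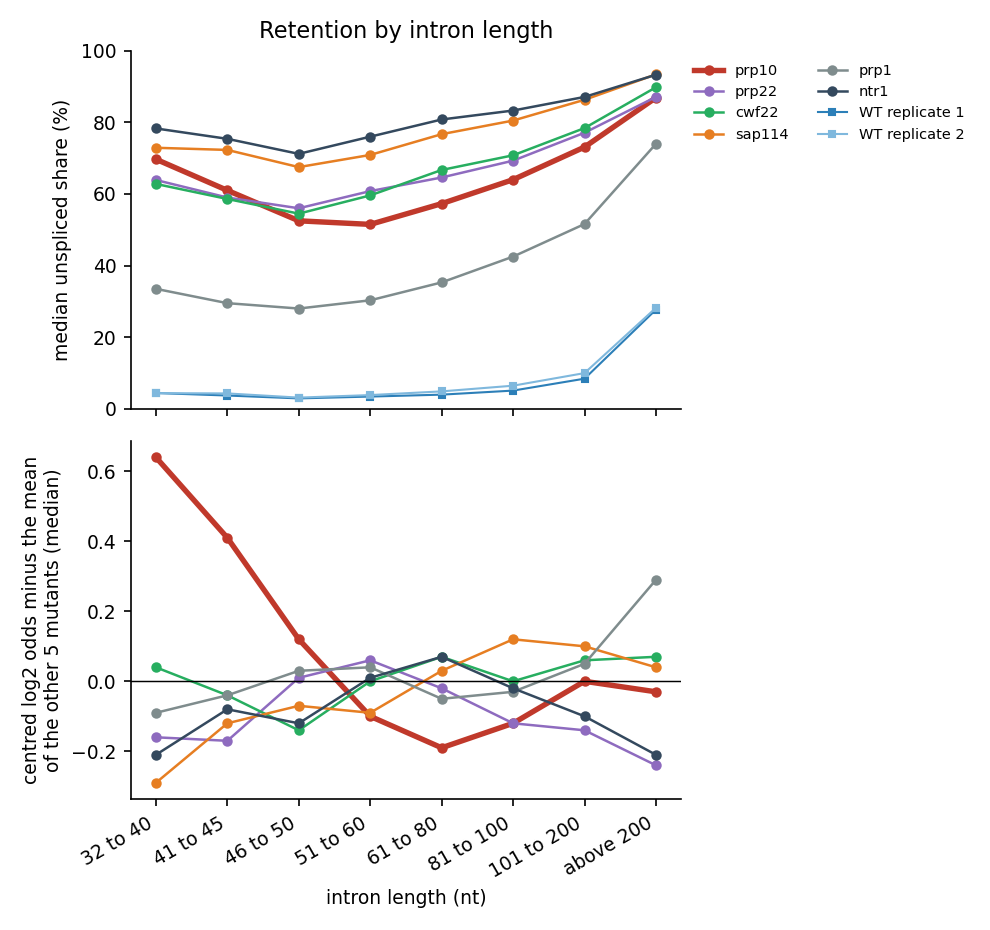
Upper panel, median unspliced share (vertical axis, %) by intron length class (horizontal axis, nt) in each of the 8 libraries. Lower panel, median centred log2 odds of each mutant minus the mean of the other 5, by the same classes. There prp10-R379H falls from 0.64 at 32 to 40 nt to -0.19 at 61 to 80 nt. The other mutants, taken against means that include prp10-R379H, stay between -0.29 and 0.29.

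Within genes, short and longer introns differed little in prp10-R379H, whereas the median difference was below 0 in every other library. In 226 genes with both an intron up to 45 nt and a longer one, the median difference in log2 odds, short minus longer, was 0.02 in prp10-R379H, and 116 of the genes (51.3%) were above 0. In the other mutants the median ran from -0.55 to -0.33, with 29.6 to 37.6% of genes above 0, and in WT it was -0.48 and -0.49. A separate example of spread inside a gene is rpc19, which encodes a subunit shared by RNA polymerases I and III. Introns 1 and 2 of rpc19 are both longer than 45 nt, so this pair does not compare short with longer introns. Intron 1 was named for lying among the lowest against the other mutants. In rpc19, intron 1 (73 nt) stood at 26.5% in prp10-R379H, against 1.41% and 0.704% in WT. In prp22, cwf22, sap114, prp1 and ntr1 it stood at 47.5, 60.5, 71.5, 27.7 and 81.2%. Its intron 2 (48 nt) stood at 91.5% in prp10-R379H, against 7.94% and 8.04% in WT and 76.9, 88.3, 94.3, 57.2 and 89.6% in the same mutants. The first was thus below all 5 other mutants and the second above 4 of them. Intron 3 of rpc19 stood at 60.7% in prp10-R379H, against a WT mean of 12.5%.

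The same order appeared along the stretch between the 5′ splice site and the inferred branch adenosine. With up to 30 bases there, the median centred difference of prp10-R379H was 0.60 (153 introns), with 31 to 35 it was 0.24 (252), with 36 to 40 it was 0.03 (268) and with 41 to 50 it was -0.20 (312). This stretch and the intron's length are tied, and their parts cannot be told apart here. The stretch from the branch adenosine to the 3′ end showed no such order, with medians from -0.04 to 0.06 in all its classes. Across the 1813 introns up to 100 nt, the Spearman correlation of length with the centred difference was -0.35 in prp10-R379H. It was 0.02 to 0.12 in the other 5, whose centred differences are taken against means that include prp10-R379H.

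Branch-site letters went with smaller differences. Introns with CTAAC had a median share of 61% in prp10-R379H (1168 introns, 45.1% of those tested), those with CTAAT 63.5% (632), those with CTGAC 62.5% (147) and those with CTGAT 67.6% (62). The 577 introns with none of the 4 stood at 67.5%. In WT the CTAAC introns stood at 4.65% and 5.60%, and those with none at 5.56% and 6.61%. The centred difference was -0.06 with CTAAC, 0.10 with CTAAT and 0.16 with no match. Introns with no match were also shorter, with a median of 55 nt against 69 nt for CTAAC. At the 5′ splice site, introns beginning GTAAGT had a median share of 66.7% in the mutant (735 introns), and those beginning GTATGT had 60.3% (578). In WT both lay between 4.22 and 5.99%. The centred difference was 0.08 with GTAAGT and -0.16 with GTATGT. Introns in the top quartile of A+T content had a lower median share, 52.5%, than those in the bottom quartile, 68.3%, and the same order held in WT (3.34% and 3.96% against 6.45% and 7.43%).

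Among introns with at least 50 reads in all 8 libraries, ini1 intron 3 was the farthest above the other mutants. ini1 encodes the fission yeast counterpart of PHF5A, a small subunit that contacts SF3B1 in human SF3b. Its intron 3, of 39 nt and with no inferred branch site, stood at 93.5% in prp10-R379H (174 of 186 reads, 95% Wilson interval 89.1 to 96.3). It stood at 4% and 4.67% in WT, and at 57.0% in prp22, 72.5% in cwf22, 56.5% in sap114, 28.8% in prp1 and 89.4% in ntr1. The mutant was the highest of all 8 libraries, 3.41 ± 0.83 (SE) log2 units above the other mutants after centring, with an unadjusted edgeR p of 0.000777. Intron 6 of ysh1, for a nuclease of the cleavage and polyadenylation complex, was outside the naming rule and is described because DESeq2 called it. It is 43 nt long and stood at 88.1% in prp10-R379H (96 of 109 reads), at 4.44% and 1.83% in WT, and at 43.5, 40.4, 58.3, 20.2 and 61.5% in prp22, cwf22, sap114, prp1 and ntr1. The prp10-R379H library lay above all other libraries. After centring, it was above the other 5 mutants by 3.55 ± 0.63 log2 units in edgeR (adjusted p 0.0955). In DESeq2 this difference was 3.56 ± 0.78 (adjusted p 0.0125). Intron 3 of pck1 was at 98.4%, with sap114 and ntr1 at 97.9% and 98.3%, so that its difference rested on few spliced reads. Also among the 6 highest were intron 1 of SPBC651.07 (85 nt), intron 1 of mks1 (45 nt) and intron 2 of loc1 (395 nt). All were between 99.2 and 99.4% in prp10-R379H. They rest on 1, 1 and 2 spliced reads there, with sap114 at 99.6, 99.3 and 99.0% and WT between 41.4 and 57.7%.

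The 6 lowest against the other mutants were 56 to 90 nt long. Intron 1 of nda2, an alpha-tubulin gene, stood at 33.6% in prp10-R379H (38 of 113 reads, 95% Wilson interval 25.6 to 42.7). It stood at 0% (0 of 72 reads) and 1.21% in WT, and at 69.8% in prp22, 64.1% in cwf22, 77.3% in sap114, 30.9% in prp1 and 82.6% in ntr1. It thus rose against WT (log2 odds change 5.74 ± 0.79, edgeR adjusted p 1.39e-12) and lay 1.63 ± 0.57 log2 units under the other mutants after centring (unadjusted edgeR p 0.0106). Intron 2 of glo3, a gene of vesicle traffic, stood at 25.9% against 1.67% and 2.01% in WT and 19.0 to 79.7% in the other mutants. Introns of rpb5, npa3 and SPAC23C4.09C were also in this group. SPAC23C4.09C intron 3 stood at 18.8% against 4.62% and 8.39% in WT (edgeR adjusted p 0.0414), and that rise was not called without WT replicate 1 or with DESeq2 or limma.

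**Figure D4:**
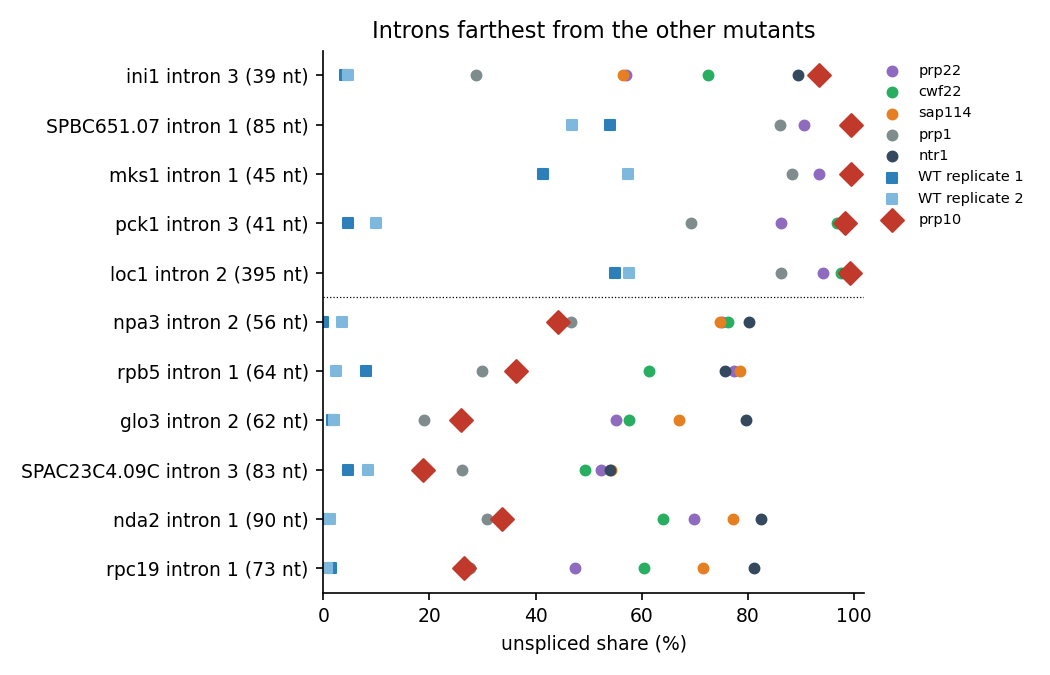
Unspliced share (horizontal axis, %) in all 8 libraries for 5 of the 6 introns highest (above the dotted line) and the 6 lowest (below it) in prp10-R379H against the other 5 mutants, with intron lengths in nt. prp10-R379H (red diamonds) is the rightmost point at ini1 intron 3 (93.5%), and lies near prp1 and left of the other mutants at the lower 6.

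Genes of the U2 snRNP and of branch-site recognition were read at 16 introns in 9 genes, and 15 of the 16 rose (93.8%, against 95.2% of all tested introns). Their median share was 79.6% in prp10-R379H, against 63.2% over all introns, and 3.72% and 6% in WT. The list was also above all introns in each of the other mutants. It stood at 75.9% against 67.3% in prp22, 73.9% against 67.6% in cwf22 and 86.7% against 78.7% in sap114. In prp1 it was 42.5% against 38.1%, and in ntr1 93.3% against 81.4%. Their median centred difference was 0.81 over 15 introns, against 0.01 over all. Single introns went both ways in edgeR's centred fit, from -1.10 log2 units at sap114 intron 3 to 3.41 at ini1 intron 3. Several of these introns share a gene. Intron 1 of prp10 itself stood at 84.1% (74 of 88 reads) against 3.45% and 5.36% in WT. Intron 2 of prp10, which begins GTACCC, was retained in every library, with 96.1% in the mutant, 93.3% and 88.9% in WT, and an edgeR adjusted p of 0.0461. That call was lost without WT replicate 2 (adjusted p 0.322), with DESeq2 and with limma. All 3 introns of ini1 rose, with intron 1 at 91.4% and intron 2 at 86.5% against 10.2 to 17.0% in WT. In sap114, intron 4 (43 nt) stood at 78.9% and intron 3 (85 nt) at 55.6% in prp10-R379H, while in sap114-A152V they stood at 67.6% and 93.8%. Both were at or under 2.47% in the WT libraries. The intron of sap49, an SF3b subunit gene, stood at 69.5% against 0% and 2.25%. Introns 3 and 5 of rsd1 were low, with 6 of 28 and 6 of 20 reads unspliced. The intron without a call was sap62 intron 1, described above.

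The 84 introns of other spliceosome genes had a median of 53.3% in prp10-R379H, and 83 of them rose (98.8%, against 95.2% of all tested introns). The counts of rises in the lists below are between 91.7 and 100% of their introns, around that background, and their medians are given. Cytosolic ribosomal protein genes were retained least of the 13 lists, with a median of 33.3% at 88 introns, with 85 rises (96.6%, against 95.2% of all tested introns) and medians of 3.22% and 3.75% in WT. Respiratory chain and ATP synthase genes came next, with 37.8% at 60 introns and 59 rises. The highest median after the U2 list was in ribosome biogenesis, 76.7% at 38 introns, followed by meiosis and sporulation (76.2% at 24) and the transcription machinery (74.0% at 65). Cell cycle and cytoskeleton genes stood at 66.7% (58 introns, all of which rose), and mitochondrial ribosomal proteins at 63.2% (25, all of which rose). Vesicle traffic stood at 57.3% (103), chaperones at 56.2% (20), translation factors at 50.8% (32), and the proteasome and ubiquitin list at 50.6% (62). edgeR called no fall in any list. Cytosolic ribosomal protein introns were the lowest list in all 6 mutants or next to it, at 44.6% in prp22, 42.8% in cwf22, 56.8% in sap114, 16% in prp1 and 61.3% in ntr1.

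**Figure D5:**
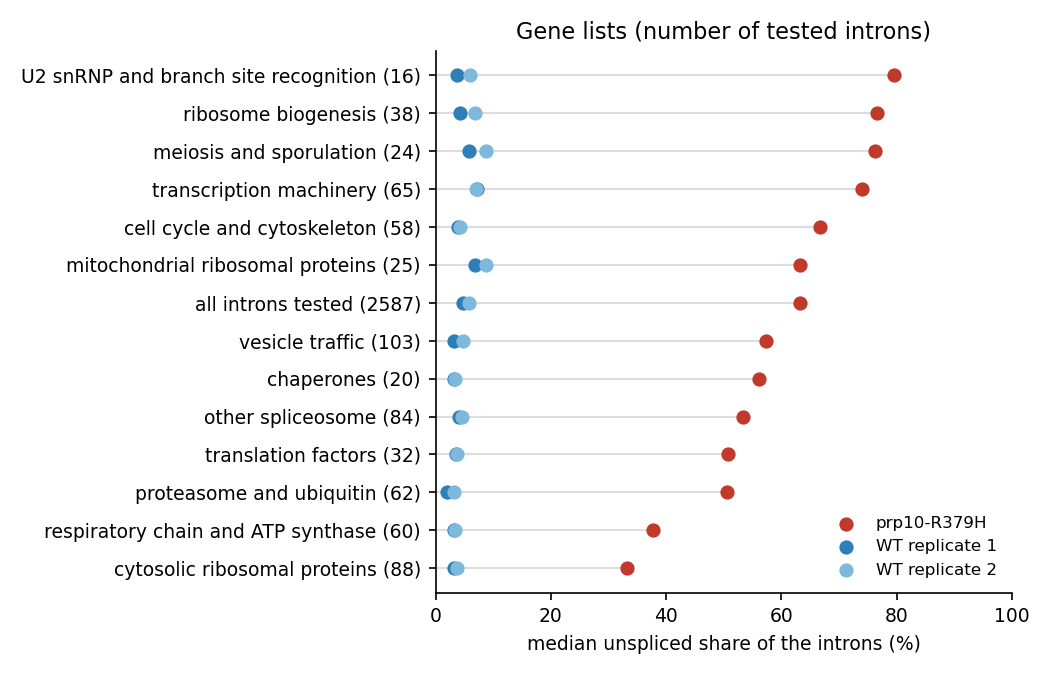
Median unspliced share (horizontal axis, %) of the tested introns in each of 13 gene lists and over all introns, in prp10-R379H and the 2 WT libraries, with the number of introns in brackets. The WT points all lie under 9%, and the prp10-R379H points run from 33.3% in cytosolic ribosomal protein genes to 79.6% in the U2 snRNP list.

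Introns within a gene differed in the mutant. Over the 663 genes with at least 2 tested introns, the median range between the highest and lowest share of a gene was 20.3 percentage points, and in 41 genes it was at least 50. tbp1, for the TATA-binding protein, had 96.6% at intron 1 (255 nt), 88.8% at intron 2 (52 nt) and 67.7% at intron 3 (70 nt). In WT the same introns stood at 31.8% and 34.2%, at 7.42% and 8.68%, and at 1.33% and 2.13%. All 3 rose in edgeR's test, as did 95.2% of all tested introns. In nda3, the beta-tubulin gene, 5 introns ran from 28.3% at intron 5 to 62.9% at intron 2, all from under 4% in WT. In cdc2, for the cyclin-dependent kinase, intron 1 lies in the 5′ UTR and was already at 57.5% and 60.8% in WT, and it stood at 80.4% in the mutant (edgeR adjusted p 0.00627). That call was lost with DESeq2 (0.128), limma (0.0976) and unspliced counts alone (0.881). Introns 2 to 5 of cdc2 stood between 51.2 and 70.6% in the mutant and at or under 12.5% in WT. In ubc4, a ubiquitin-conjugating enzyme gene, intron 1 (79 nt) stood at 19.0% (564 of 2975 reads) against 0.712% and 1.07%, and intron 2 (371 nt) at 61.8% against 10.3% and 12.3%.

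Mutations of human SF3B1 are known for the use of other 3′ splice sites, so junctions joining an annotated 5′ splice site to another 3′ site were examined. They took 4.16 reads per 1000 annotated spliced reads in prp10-R379H, against 4.57 and 4.21 in WT and 4.05 to 4.63 in the other mutants. Sites 1 to 20 nt upstream of the annotated one took 0.669 per 1000 in prp10-R379H, against 0.914 and 0.814 in WT. In the other mutants they took from 0.589 (sap114) to 1.2 (cwf22). That prp10-R379H lay below both WT libraries here rested on 1 site, described below. Sites 1 to 20 nt downstream took 1.70 against 1.64 and 1.46 in WT, and 1.5 to 1.96 in the other mutants. Of 1289 such junctions, 33 had enough reads to test against the annotated junction. edgeR's test called 0 higher (0%, with 0 at an unadjusted p under 0.05) and 1 lower (3.03%, with 2 at an unadjusted p under 0.05), and DESeq2 called 0 in either direction. The other junctions had too few reads or no annotated partner with enough reads.

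The called site lies in intron 1 of SPCC70.08C, a methyltransferase gene. The intron, with its first 6 bases, the alternative 3′ end 11 bases upstream and the annotated 3′ end in capitals, is shown because it holds the only call.
SPCC70.08C intron 1 (III:2368570-2368619, minus strand): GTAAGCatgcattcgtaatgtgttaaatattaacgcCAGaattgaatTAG
The upstream site took 17.7% of spliced reads in prp10-R379H (22 of 124 reads at the 2 sites), against 41% and 46.1% in WT (80 of 195 and 166 of 360). The mutant lay under both WT libraries, with a log2 odds change of -1.86 ± 0.51 (SE) and an edgeR adjusted p of 0.0269. The call was lost without WT replicate 2 (adjusted p 0.118), with DESeq2 (0.0659) and with the alternative counts alone (0.373). The SPCC70.08C site held 22 of the 204 reads at sites 1 to 20 nt upstream in prp10-R379H. In WT it held 80 of 339 and 166 of 603. With that site left out, the rate per 1000 annotated spliced reads in prp10-R379H lay between those of the 2 WT libraries. The lower rate at upstream sites in the mutant thus rested on this site. The largest rise in share, not called, was at intron 1 of ppx1, an exopolyphosphatase gene. There a site 10 nt downstream took 35.3% of spliced reads in the mutant against 19.6% and 23.6% in WT (log2 odds change 0.93 ± 0.81, adjusted p 0.876).

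Of the tested introns 2517 lie in coding regions, 51 in 5′ UTRs and 7 in 3′ UTRs of the reference annotation. A reference gene on the opposite strand overlaps 1522 of the 2587 introns, 64 of the 107 introns chosen for naming among them. The libraries are directional, but whether the authors' counts used strand is not given in the sources used here, so antisense reads at these introns cannot be told apart.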

How the data were processed

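The authors deposited 1 table of counts of spliced and unspliced reads per junction and library, per the file headers. STAR 2.5, bedtools 2.26 and build ASM294v2 are named in the submitters' processing notes. The reference used here, ASM294v3, gave gene symbols, intron numbers and sequences, and 5077 of 5144 annotated introns matched it at both ends. Summed reads over annotated introns were 809751 in prp10-R379H and 420473 and 846804 in WT, with medians of 104, 57 and 111 per tested intron. These depths set the Wilson intervals given. A chi-square test of the WT replicates' intron totals gave 5909 with 2586 degrees of freedom, so they were counted as 2 libraries.

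edgeR 4.0.16 (R 4.3.3) was fitted across all tested introns to both counts of each library, with a coefficient for each library and 1 of unspliced over spliced for each genotype (1 residual degree of freedom against WT, 4 against the other 5 mutants, where each library's median log2 odds was an offset). Spliced counts of the same library are the reference, so library size does not enter. Alternatives were DESeq2 1.42.0, limma 3.58.1, unspliced counts alone, other read minimums and left-out libraries. Introns were named by rule, as the 12 largest rises, 5 smallest changes, 6 lowest mutant shares and 6 largest WT shares with at least 50 reads in each of the 3 libraries (1 per gene), the 6 highest and 6 lowest against the other mutants, 4 of each gene list, all of the U2 list and of some commonly assayed genes. rpc19 intron 2 came from its gene list. The introns, lists and comparisons were chosen with earlier results of these data known. One of the 6 introns highest against the other mutants is not reported here.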

Additional observations from a re-analysis of the deposited data

Results flagged for a closer look

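The contrast of introns up to 45 nt with introns of 61 to 100 nt had the opposite sign in prp10-R379H and in every one of the other 5 mutants. It was 0.22 in log2 odds in prp10-R379H and between -0.43 and -0.32 in the others. This difference was not tested beyond its rank, since 1 library stands against 5.

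Junctions outside the annotated introns were not part of the comparison above, and 2 of the authors' classes took more reads in prp10-R379H than in either WT library. New pairings of known splice sites took 15.5 reads per 1000 annotated spliced reads, against 11.9 and 12.5 in WT and 13.8 to 16.5 in the other mutants. Introns called new took 83.9 per 1000 against 73.5 and 73.2 in WT, and 73.9 to 119 in the other mutants. Among new introns of 30 nt or longer the value was 51.9, against 50.4 and 49.9 in WT. Annotated spliced reads, the divisor, were 304906 in prp10-R379H and 371024 and 740673 in WT. The part of that lower divisor in these ratios was not tested.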

How the results depend on the processing

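The median difference in share between prp10-R379H and WT was 57.9 percentage points. It was 55.0 with a minimum of 50 reads, 58.8 with no minimum beyond 1 read, 50 over summed reads, and 57.3 to 58.4 with either WT replicate left out. Rises of at least 20 points numbered 1264 at the minimum of 50 and 4077 with no minimum, and 2326 to 2334 with either WT replicate left out. edgeR's rises numbered 1393 and 3754 at these 2 minimums, since fewer or more introns were tested, and 2384 to 2424 with a WT replicate left out (1 library against 1, with the spread carried over from the fit of 3), with 0 falls. Unspliced counts alone gave 6 falls under both scalings (TMM and DESeq2 size factors). Against the other 5 mutants, calls were 0 in every setting but DESeq2, with 1 higher, and 0 with any 1 mutant left out. At alternative 3′ splice sites, the 1 lower call became 0 with DESeq2 and with alternative counts alone, and 0 to 1 with a WT replicate left out, with 0 higher. The short-intron difference of 0.61 became 0.76 with a minimum of 50 reads, 0.89 with short taken as up to 40 nt and 0.79 at introns under 10% in WT, and ran from 0.60 to 0.63 with a mutant left out (all added after seeing the data).

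Of 1223 alternative values for 125 named results, 43 lost a call (13 results) and 6 gained one (3 results, all as falls with unspliced counts alone). With unspliced counts alone (TMM, then DESeq2 size factors), 8 introns changed sign, at -0.60 and -0.60 for scs2 intron 2, -0.45 and -0.44 for SPAC1687.21 intron 2, -1.01 and -1.0 for mug65 intron 2, -0.70 and -0.69 for mug161 intron 3, -0.29 and -0.28 for ago1 intron 1, -0.01 and -0.01 for prp10 intron 2, -0.32 and -0.31 for uap2 intron 1 and -0.14 and -0.14 for taf13 intron 1. SPAC1687.21 intron 2 ran from -0.0016 to 0.30 with a WT replicate left out. Unspliced counts alone leave out the spliced reads, so they also move with the total reads of an intron and are no measure of its share. The cause of the sign changes was not tested. No paired analysis was made, because the labels do not pair the prp10-R379H library with a WT library.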
